A study of Mus musculus with 96 samples.

Results

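Ribosome biogenesis was followed through 41 genes whose products build the 2 ribosomal subunits in the nucleolus. They were taken by symbol from a list of nucleolar hub proteins (5 genes), RNA polymerase I transcription factors and subunits (4), box C/D snoRNP proteins with a U3-associated factor (4), box H/ACA snoRNP proteins (4), small subunit (40S) assembly factors (12) and large subunit (60S) assembly factors (12). All 41 had counts, of 35670 genes with any count in the table, and all 41 were among the 15772 genes tested.

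The samples were 96 liver mRNA libraries from mice of 12 to 16 weeks. Wild-type (WT) and knockout (KO) mice came from 2 lines, named here after the deleted genes, Bmal1 and Cry. Bmal1 KO mice lack BMAL1, the activator of the circadian clock, and the KO mice of the Cry line lack the repressors CRY1 and CRY2, since the labels give the genotype as Cry1/2 KO. Each genotype was fed either ad libitum (AL) or only at night (RF, restricted feeding), which gave 8 groups of 12 libraries, with 2 libraries at each of 6 zeitgeber times (ZT, hours from lights on): 0, 4, 8, 12, 16 and 20. The labels used here do not say in which cells the genes were deleted, nor the strain or whether animals were pooled. Nothing in the labels ties libraries to separate animals, and the spread behind each p-value is that of the libraries, which may be technical.

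A ribosome is assembled from ribosomal RNA, which RNA polymerase I transcribes in the nucleolus, and from ribosomal proteins imported from the cytoplasm. Small nucleolar ribonucleoproteins (snoRNPs) guide the methylation and pseudouridylation of the RNA, and a large set of assembly factors folds, cuts and exports the subunit precursors. In liver, ribosome production is known to follow nutrient supply through mTORC1 and MYC, and parts of it are known to vary over the day.

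Promoter sequence is shown for 4 genes because the knockouts remove clock proteins that act through the E-box CACGTG, and because these 4 genes have different daily patterns: Nop2 and Nolc1 varied strongly over the day, Nat10 had a later peak and a knockout effect of its own, and Rrn3 did not pass the rhythm test in any group. RefSeq promoters (GRCm38.p6) were matched for 37 of the 41 genes, in 46 windows. Each sequence runs 5′ to 3′ on the gene's strand from 250 bases before the start to 30 bases after it, and capitals mark CACGTG.
Nop2 promoter, chr6:125131633-125131912, plus strand: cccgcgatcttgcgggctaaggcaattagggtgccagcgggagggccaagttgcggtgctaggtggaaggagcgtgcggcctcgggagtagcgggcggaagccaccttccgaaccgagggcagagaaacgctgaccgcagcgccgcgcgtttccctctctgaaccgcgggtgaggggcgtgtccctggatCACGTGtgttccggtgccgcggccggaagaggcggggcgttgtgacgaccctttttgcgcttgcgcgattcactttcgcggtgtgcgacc
Rrn3 promoter, chr16:13780449-13780728, plus strand: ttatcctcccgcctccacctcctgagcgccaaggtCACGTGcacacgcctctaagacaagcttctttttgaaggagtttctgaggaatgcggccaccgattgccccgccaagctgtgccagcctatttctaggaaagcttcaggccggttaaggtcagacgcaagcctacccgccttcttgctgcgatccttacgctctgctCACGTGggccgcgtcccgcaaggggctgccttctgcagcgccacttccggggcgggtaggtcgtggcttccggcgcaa
Nolc1 promoter, chr19:46075597-46075876, plus strand: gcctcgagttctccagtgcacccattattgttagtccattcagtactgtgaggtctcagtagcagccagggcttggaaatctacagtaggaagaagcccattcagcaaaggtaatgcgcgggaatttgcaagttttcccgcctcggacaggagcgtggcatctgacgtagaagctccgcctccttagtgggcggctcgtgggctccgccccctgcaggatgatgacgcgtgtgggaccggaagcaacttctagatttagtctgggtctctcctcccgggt
Nat10 promoter, chr2:103761241-103761520, minus strand: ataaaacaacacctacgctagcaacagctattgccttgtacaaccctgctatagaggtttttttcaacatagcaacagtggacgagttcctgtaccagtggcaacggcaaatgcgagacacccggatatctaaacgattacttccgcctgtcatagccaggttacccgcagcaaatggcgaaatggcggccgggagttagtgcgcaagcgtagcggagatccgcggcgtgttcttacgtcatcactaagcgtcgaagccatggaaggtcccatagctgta
The 5′-most base of the E-box lies 60 bases before the Nop2 start, and 215 and 48 bases before the Rrn3 start. The Nolc1 and Nat10 sequences hold no CACGTG. Within the 250 bases before the start, 2 of 46 windows (4.35%) held CACGTG, against 6.02% of 32851 windows of the same length over all genes. With 50 bases after the start included, 8 of 46 windows (17.4%) held it, against 7.15% of all windows, and these belonged to Nop2, Rrn3, Ltv1, Utp20, Pes1, Mybbp1a, Tsr1 and Wdr43. Of those 8 genes, Nop2, Mybbp1a and Tsr1 passed the rhythm test below in at least 1 group and the others in none. Over all 41 members 20 passed in at least 1 group, and a link between these letters and rhythm was not tested. The letters CCGGAAG, the core bound by ETS factors, were searched on both strands and cannot share bases with CACGTG. Within the 250 bases before the start they occurred in 6 of 46 windows (13.0%) against 6.91% of all windows, and with the 50 bases after it in 12 of 46 (26.1%) against 8.86%. Several windows of 1 gene overlap, windows are not independent, and a match is a description of the letters only.

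Library totals spanned 1478963 to 35568856 counts (median 25422366). The shallowest library, Cry KO RF series 3 at ZT4, still held between 6 (Gar1) and 317 (Ncl) counts per member, so every member was counted in every library. Levels are in CPM, counts scaled to library depth with TMM factors. All 6 hepatocyte markers were present in every library, with Alb, the serum albumin gene, between 11680 and 100800 CPM. In whole liver, fewer cells of a type and less RNA per cell cannot be told apart. The deleted genes kept reads: median Arntl (the Bmal1 gene) was 11.2 and 14.9 CPM in Bmal1 KO AL and RF against 22.3 and 23.6 CPM in WT, and Cry1 was 7.87 and 9.75 CPM in Cry KO AL and RF against 20.6 and 28.8 CPM in WT. Median Cry2 was 24.8 and 22.8 CPM in Cry KO AL and RF against 37.1 and 40.1 CPM in WT. Counts are per gene, so reads from outside a deleted part are included and cannot be told apart.

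The libraries of each group fall in 2 numbered series of 6, one library per time. In Cry KO AL the series stood apart from each other. Series 2 differed from series 1 by more than 0.5 log2 in 38.7% of genes, against 3.49% to 6.82% in the other 7 groups. The difference moved with exon length, from a median of 0.30 in the shortest of 4 equal length classes of genes to −0.41 in the longest. The sum of 6 endothelial markers was 352 to 392 CPM in series 1 and 79.3 to 148 CPM in series 2. The 6 Kupffer cell and macrophage markers summed to 353 to 721 and 94.2 to 224 CPM. The 6 stellate markers summed to 308 to 355 and 143 to 235 CPM. No marker of these lists was at 0 in either series. Median sums of hepatocyte markers were higher in series 2 (74600 and 98300 CPM in series 1 and 2). So were those of cholangiocyte (47.4 and 79.6 CPM) and acute phase markers (2190 and 6270 CPM). Endothelial sums of the 2 series also did not overlap in Bmal1 WT RF (283 to 341 and 207 to 268 CPM). The same held in Bmal1 KO AL (307 to 376 and 199 to 282) and Cry KO RF (281 to 352 and 179 to 251). Of the members 7 were over 0.5 log2 higher in series 2 and 2 lower. Nop10, a small box H/ACA protein, read 22.6 to 32.2 CPM in the 6 libraries of series 1 and 56.2 to 71.7 CPM in those of series 2. Fbl, the box C/D methyltransferase, read 22.02 to 25.6 and 36.7 to 50.8 CPM. The 2 series do not overlap for either gene. Results that rest on Cry KO AL are therefore also given without series 2. A further 7 libraries were high in Saa1 (over 5000 CPM), Isg15 (over 50 CPM) or Ctrb1 (over 40 CPM), genes of the acute phase, the interferon response and the exocrine pancreas.

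The members covered a wide range of levels. Divided by exon length, the mean over 96 libraries was highest for the nucleolar chaperone Npm1 (44.4 CPM per kb), Nop10 (30.4), nucleolin, Ncl (19.4), the 60S factor Nop16 (14.2) and the H/ACA protein Nhp2 (13.3). It was lowest for Nop58 (2.13 CPM per kb), Wdr12 (1.37) and Rrp1b (1.01). The RNA polymerase I genes were spread through the order, with Ubtf at 8.30, Rrn3 at 5.86, Polr1b at 3.79 and Polr1a at 2.35 CPM per kb. Exon length is that of all annotated exons, so genes with long rare exons read low.

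Over the day most members were low at ZT4 or ZT8 and high at ZT16 in both WT lines under ad libitum feeding. In Bmal1 WT AL the median deviation of the members from their group means was 0.32 log2 at ZT16 and −0.23 at ZT8. In Cry WT AL the same medians were 0.26 and −0.26. Under night feeding they were 0.41 and −0.13 in Bmal1 WT, where the lowest time was ZT4 at −0.26, and 0.17 and −0.29 in Cry WT. In both WT lines under ad libitum feeding, the 2 libraries at ZT16 lay above both at ZT8.

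**Figure D1:**
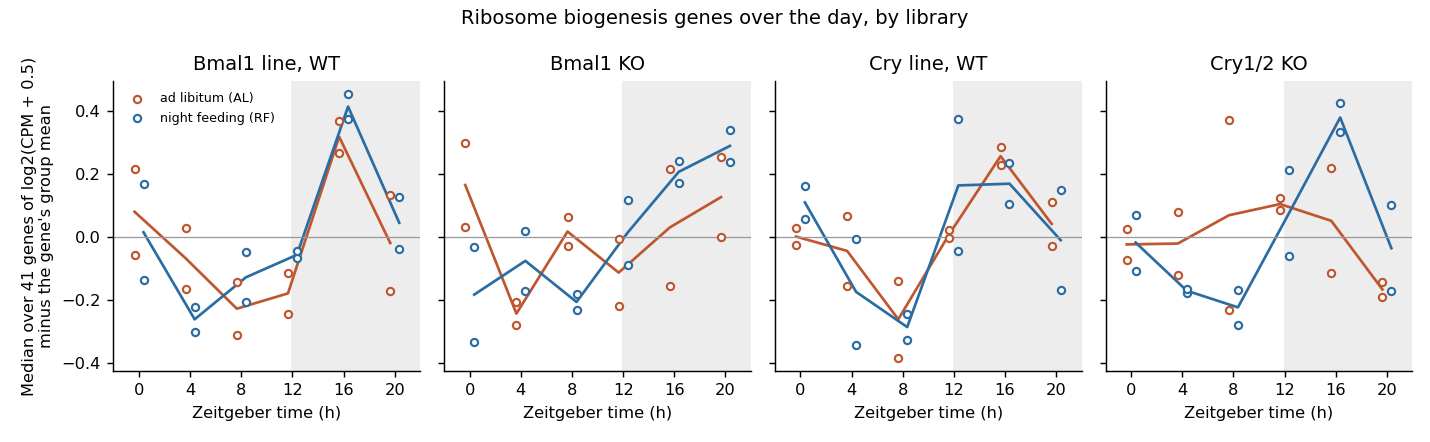
Median over the 41 genes of the log2(CPM + 0.5) level minus each gene's group mean, against zeitgeber time in hours; each circle is 1 library, lines join the means of the 2 libraries, orange is ad libitum and blue night feeding, and grey marks the dark phase from ZT12. The Bmal1 WT groups rise to ZT16, at 0.32 and 0.41, as does Cry WT AL (0.26), while Bmal1 KO AL is highest at ZT0 (0.17). Cry WT RF has similar means at ZT12 (0.16) and ZT16 (0.17). The means of Cry KO AL span −0.17 to 0.11 over 2 series that oppose each other at ZT8 (0.37 in series 2 and −0.23 in series 1).

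The highest of the 6 time means fell at ZT16 for 29 of 41 members in Bmal1 WT AL, 30 in Bmal1 WT RF and 31 in Cry WT AL. In Cry WT RF 19 members were highest at ZT12 and 12 at ZT16. In Cry KO RF 36 members were highest at ZT16, the largest number in any of the 8 groups. Shares of all genes highest or lowest at single times are not given, so whether such counts set the members apart was not tested. In a 24 h cosine fit, 35 members and 30.8% of all genes peaked between ZT14 and ZT20 in Cry KO RF. In the other groups 6 to 32 members and 22.7% to 26.2% of all genes did. In Bmal1 KO AL 18 members were highest at ZT0 and 31 lowest at ZT4, and in Bmal1 KO RF 21 were highest at ZT20. At ZT0 in Bmal1 KO AL 21 members lay above their group mean in series 1 and 37 in series 8. Such counts are no test of a difference from WT, and rhythm differences are tested below. In Cry KO AL the highest times were spread over ZT8 (14 members), ZT12 (13) and ZT16 (11), but the 2 series opposed each other. At ZT8 38 members lay above their group mean in series 2 and 8 in series 1. Without series 2, 1 member was highest at ZT8, 19 at ZT12 and 4 at ZT16, and the median deviation from the mean of series 1 ran from −0.12 at ZT8 to 0.13 at ZT12. Without series 1, 23 were highest at ZT8. Series of other groups also opposed each other at single times. In Bmal1 KO AL at ZT16, 35 members lay above their group mean in series 1 and 9 in series 8. At ZT0 in Bmal1 WT RF 34 did in series 2 and 7 in series 4. At ZT20 14 did in series 1 and 32 in series 8 of Bmal1 WT AL. In Cry WT RF at ZT20 28 did in series 6 and 6 in series 9.

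A 24 h cosine was fitted per group, and a gene was called rhythmic with an adjusted p under 0.05 (edgeR's quasi-likelihood test, Benjamini-Hochberg over the genes tested) and a fitted range, peak minus trough, of 0.5 log2 or more. Of the 41 members 5 were rhythmic in Bmal1 WT AL, where 9.97% of all genes were. In Bmal1 WT RF 14 were, against 12.8% of genes. In Cry WT RF 11 were, against 18.9% of genes, and in Cry WT AL 0 were, against 6.67%. In Bmal1 KO RF 5 members were rhythmic (5.26% of genes) and in Cry KO RF 7 (6.63%). In Bmal1 KO AL 0 members were (0.0317%), and in Cry KO AL 0 (0%).

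At an unadjusted p under 0.05 the groups with a count of 0 held 8 (Bmal1 KO AL), 16 (Cry WT AL) and 4 (Cry KO AL) members, where 5.83%, 20% and 7.99% of genes did, and DESeq2 called 0, 3 and 0. Without Cry KO AL series 2 its count was 2 (6.14% of genes). With no filter on low counts 11 members were rhythmic in Bmal1 WT AL, 4 in Bmal1 KO AL, 8 in Cry WT AL, 9 in Bmal1 KO RF and 11 in Cry KO RF. With each group fitted alone 5 were in Cry WT AL, 1 in Bmal1 KO RF and 2 in Cry WT RF, with a free mean per time 8 in Bmal1 WT AL and 3 in Cry WT AL, and DESeq2 called 8 in Bmal1 KO RF. With either series of a group left out, 1 library remained per time, which makes the test weaker for every gene. Then 0 or 1 member was rhythmic in Bmal1 WT AL, Bmal1 WT RF, Bmal1 KO RF and Cry KO RF. The shares of all genes in these settings are not given. In Cry WT RF 0 were without series 6 and 8 without series 9. Without the 7 libraries high in Saa1, Isg15 or Ctrb1, 3 members were rhythmic in Bmal1 KO RF and 1 in Cry KO RF. With Cry KO AL series 2 left out of the shared fit, 8 were rhythmic in Bmal1 KO RF and 3 in Cry WT AL. Here and below, counts under alternatives are mostly given without the share of all genes called in that setting. A count that moved is thus not read as a result about the members.

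The direction of the timing was shared by 7 groups. The fitted peak fell between ZT12 and ZT24 for 38 members in Bmal1 WT AL, 37 in Bmal1 WT RF, 38 in Cry WT AL, 35 in Cry WT RF, 39 in each Bmal1 KO group and 39 in Cry KO RF, against 47.4% to 51.3% of all genes in these groups. In Cry KO AL it did for 13 members, against 44.5% of genes, and this count rests on series 2: without it 26 members did, against 49.1% of genes, and without series 1 4 did, against 46.3%. The median range of the members was 0.45 log2 in Bmal1 WT AL and 0.62 in Bmal1 WT RF, where the median of all genes was 0.45 and 0.46. It was 0.41 in Cry WT AL and 0.47 in Cry WT RF (0.41 and 0.52 over all genes), 0.35 in Bmal1 KO AL and 0.52 in Bmal1 KO RF (0.29 and 0.41), and 0.29 in Cry KO AL and 0.49 in Cry KO RF (0.33 and 0.46). Without series 2 it was 0.29 in Cry KO AL, against 0.40 over all genes.

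**Figure D2:**
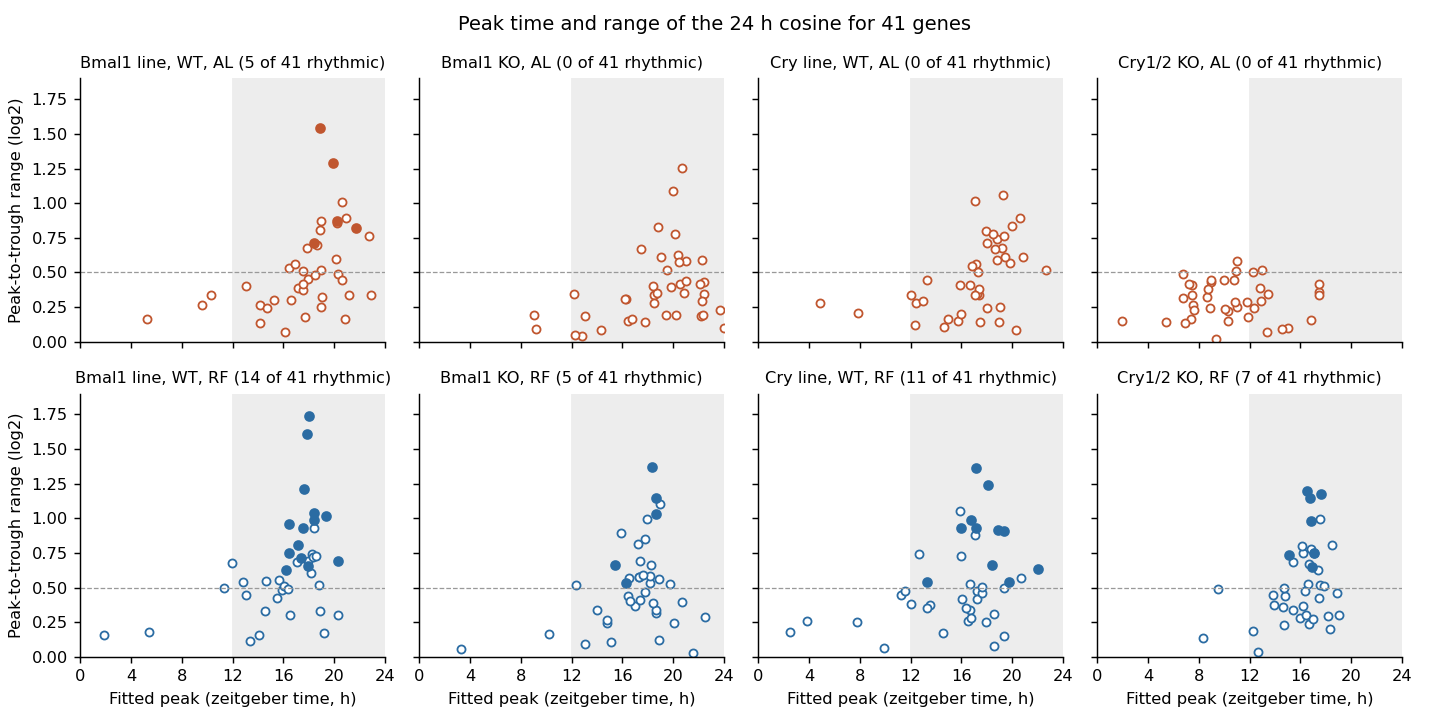
Fitted peak time in hours (horizontal) and peak-to-trough range in log2 (vertical) of the 24 h cosine for each of the 41 genes in the 8 groups; filled circles are genes called rhythmic, open circles the rest, the dashed line is the minimum range of 0.5 and grey marks the dark phase. Most points lie in the dark phase in 7 groups, and in Cry KO AL 13 of 41 do with both series (26 without series 2, not plotted).

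Of the members 20 were rhythmic in at least 1 group, 8 in at least 3 and 3 in 4: Rrp12, Nolc1 and Bysl. The matching shares of all genes are not given here, and per group 0% to 18.9% of genes were rhythmic. Rrp12, which is needed for export of the subunits from the nucleus, had the largest range. Its 2 libraries read 20.8 and 22.8 CPM at ZT16 and 4.93 and 6.52 CPM at ZT8 in Bmal1 WT AL. In Bmal1 WT RF they read 18.4 and 19.7 CPM at ZT16 and 4.47 and 6.21 CPM at ZT4. The libraries of the high and the low time do not overlap in either group. The fitted range of Rrp12 was 1.54 log2 in Bmal1 WT AL (2.91-fold, peak at ZT 18.8, adjusted p = 0.0018), 1.74 in Bmal1 WT RF (3.34-fold, ZT 18.0, adjusted p = 0.00024), 1.36 in Cry WT RF (2.57-fold, adjusted p = 0.00342) and 1.197 in Cry KO RF (2.29-fold, adjusted p = 0.0408).

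Nolc1, a nucleolar phosphoprotein that binds snoRNPs, had the next largest range in Bmal1 WT RF. It read 48.03 and 54.5 CPM at ZT16 and 11.6 and 14.8 CPM at ZT4 there, with a range of 1.61 log2 (3.05-fold, adjusted p = 0.00166). The range was 1.29 in Bmal1 WT AL (adjusted p = 0.0209), 1.24 in Cry WT RF (0.0228) and 1.37 in Bmal1 KO RF (0.0152). In Bmal1 KO RF the highest time was ZT20, in the dark, with 47.0 and 61.7 CPM, against 15.5 and 23.4 CPM at ZT8.

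Bysl, a 40S assembly factor, was rhythmic in the 4 groups fed at night, Bmal1 WT RF (range 0.93, adjusted p = 0.0128), Bmal1 KO RF (1.03, 0.0132), Cry WT RF (0.91, 0.0162) and Cry KO RF (1.18, 0.00473). In Cry KO RF it read 31.2 and 31.6 CPM at ZT16 and 9.79 and 12.4 CPM at ZT8. Nop2, the methyltransferase of the large subunit RNA, followed in 3 of these groups. It was rhythmic in Bmal1 WT RF (1.21, adjusted p = 0.00618), Cry WT RF (0.93, 0.041) and Cry KO RF (1.14, 0.0272), with 35.5 and 36.4 CPM at ZT16 against 8.85 and 17.0 CPM at ZT4 in Cry KO RF. Nop16, a 60S factor, was rhythmic in Bmal1 WT AL (range 0.87, adjusted p = 0.0303), Bmal1 WT RF (1.01, 0.00521) and Cry WT RF (0.92, 0.0104). Its libraries in Bmal1 WT RF read 31.4 and 32.0 CPM at ZT16 and 15.2 and 17.4 CPM at ZT8. Nob1, the nuclease that makes the last cut of the small subunit RNA, was rhythmic in Cry WT RF alone (0.99, 0.00413).

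Of the remaining assembly factors, Wdr12 of the PeBoW complex was rhythmic in Bmal1 WT RF (0.72), Cry WT RF (0.66) and Cry KO RF (0.65). Bop1 of the same complex was in Cry WT RF (0.54), the 40S factor Tsr1 and the 60S factor Ftsj3 in Bmal1 WT RF (0.99 and 0.62), and the 40S factor Nop14 in Bmal1 KO RF (0.53). The other 40S factors, Wdr43, Wdr75, Utp20, Heatr1, Ltv1 and Noc4l, and the other 60S factors, Pes1, Rrp1b, Gnl3, Noc2l, Noc3l, Mrto4 and Ppan, passed in no group. Large ranges were among them: Ppan had a range of 1.25 log2 in Bmal1 KO AL with an adjusted p of 0.418.

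Each role but the box H/ACA proteins held rhythmic members, and differences between roles were not tested. Of 4 H/ACA genes (Dkc1, Gar1, Nhp2, Nop10) 0 were rhythmic in any group, a count of few genes beside the 0% to 18.9% of all genes called per group. Their median range in Cry WT RF, 0.54 log2, was below that of the C/D genes (0.63). It was above that of the 60S (0.52), hub (0.48), polymerase (0.44) and 40S genes (0.34). At ZT20 in that group the libraries of series 6 and 9 read 26.85 and 10.79 CPM for Nhp2. For Nop10 they read 45.99 and 31.36 CPM. The lowest adjusted p of an H/ACA gene was that of Gar1 in Cry WT AL (range 0.89, 0.0997). Of the hub proteins, Mybbp1a, a polymerase I and MYB-binding protein, was rhythmic in Bmal1 WT AL (0.71), Bmal1 WT RF (0.66) and Cry KO RF (0.75). Ncl was rhythmic in Cry WT RF alone (0.54, adjusted p = 0.02), with an earlier fitted peak at ZT 13.3. The RNA helicase Ddx21 was rhythmic in Bmal1 KO RF (0.66, adjusted p = 0.0431). Npm1 was not rhythmic in any group, with ranges of 0.28 to 0.52 and adjusted p of at least 0.0848. Fitted peaks of Npm1 lay at ZT 10.3 to 12.4 in the 4 WT groups.

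Of the polymerase I genes, the largest subunits Polr1a and Polr1b were rhythmic in Bmal1 WT RF (0.75 and 0.81, adjusted p = 0.022 and 0.00955), and Polr1b in Cry KO RF (0.73, 0.0445). Rrn3, the initiation factor that carries the growth signal to the polymerase, was not rhythmic in any group: its ranges were 0.18 to 0.58 and its libraries spanned 18.9 to 42.2 CPM in Bmal1 WT AL. Ubtf, the upstream binding factor that opens ribosomal DNA, had small ranges of 0.02 to 0.30, and its fitted peaks in the 4 WT groups lay in the light, at ZT 3.8 to 5.4. Of the C/D proteins, the scaffold pair Nop56 and Nop58 were rhythmic in Bmal1 WT RF (0.96 and 1.04, adjusted p = 0.046 and 0.0292), Nop56 also in Cry WT RF (0.93) and Nop58 in Bmal1 KO RF (1.15, 0.0229). Rrp9, of the U3 snoRNP, was rhythmic in Cry KO RF (0.98, adjusted p = 0.00473). The methyltransferase Fbl was not rhythmic in any group (ranges of 0.05 to 0.30).

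**Figure D3:**
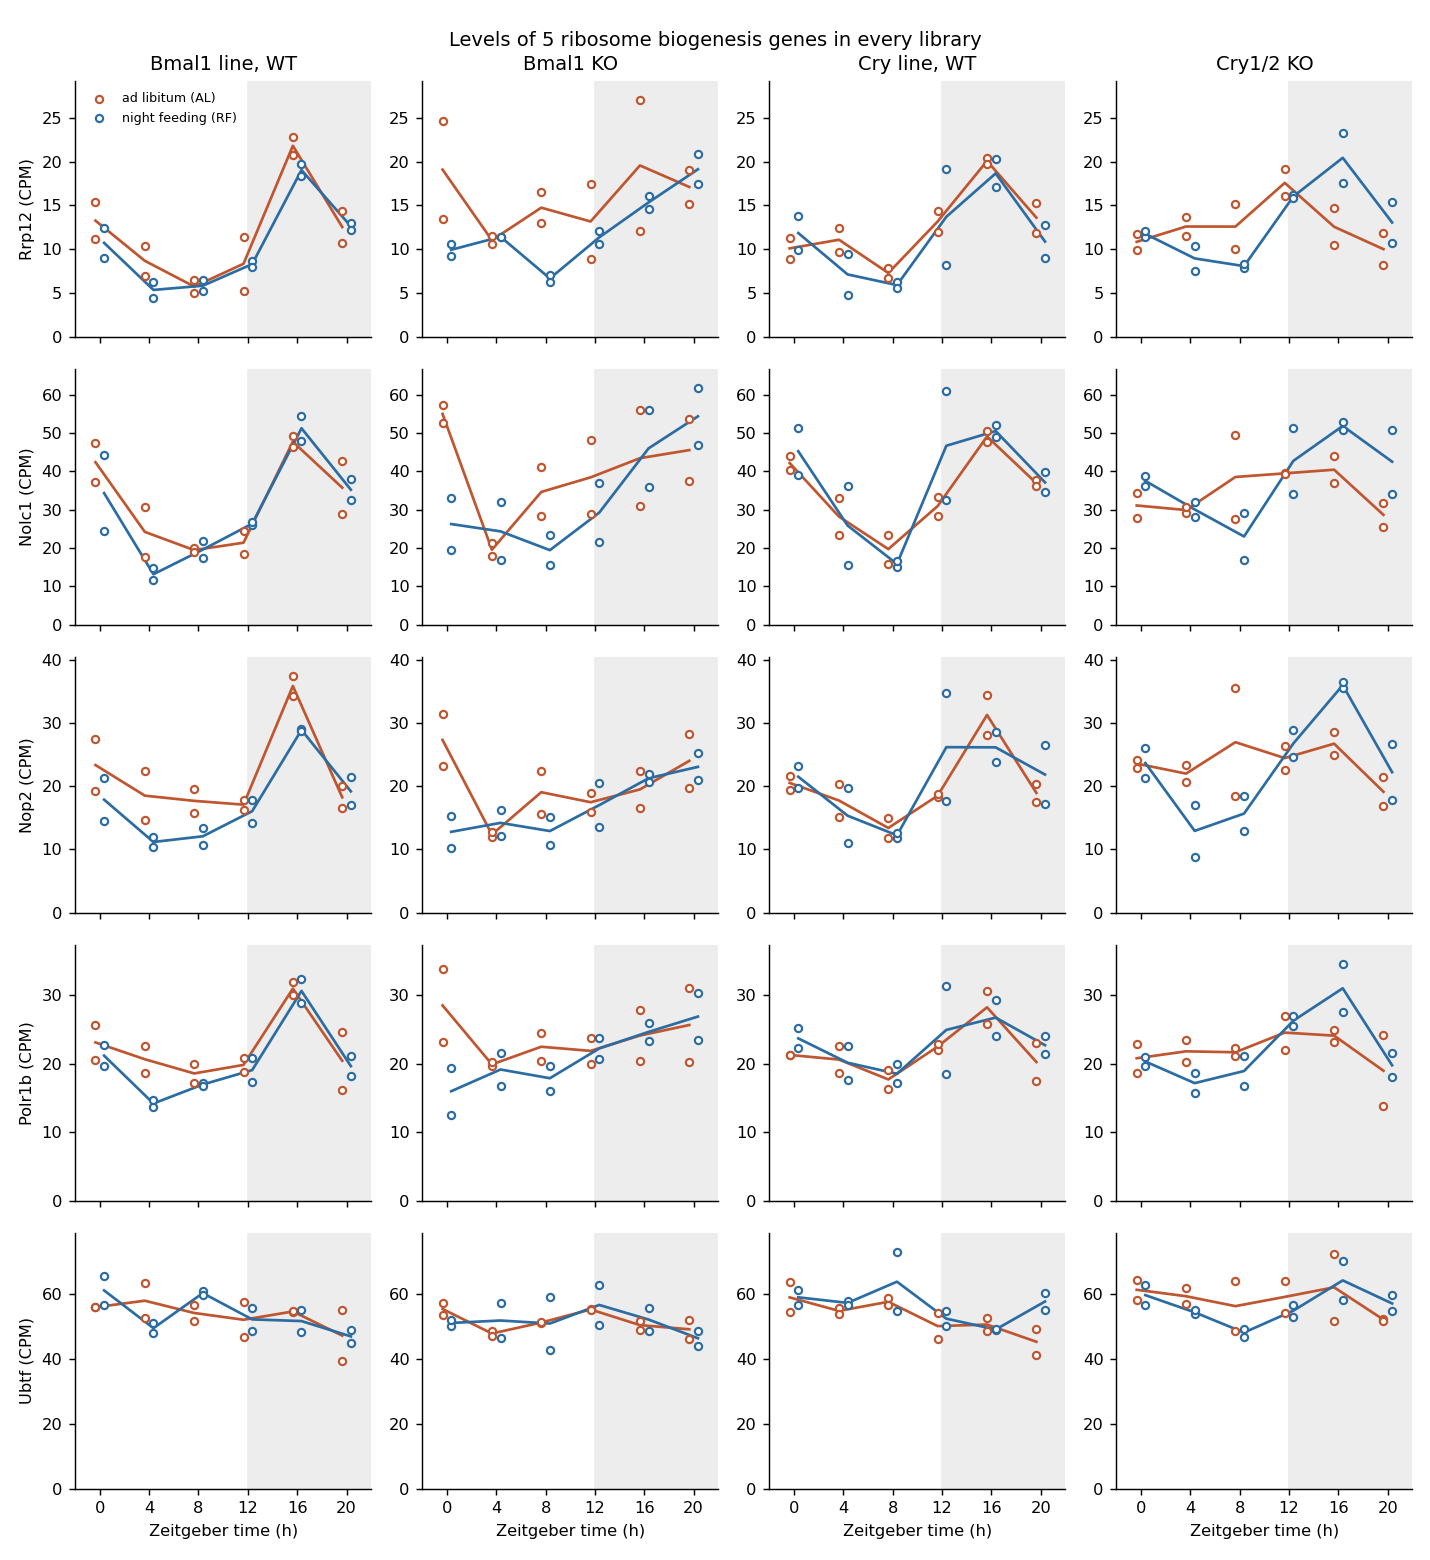
Level in CPM (vertical, from 0) against zeitgeber time in hours for Rrp12, Nolc1, Nop2, Polr1b and Ubtf; circles are single libraries, lines join the means of 2 libraries, orange is ad libitum and blue night feeding. Rrp12 in Bmal1 WT AL goes from 4.93 and 6.52 CPM at ZT8 to 20.8 and 22.8 CPM at ZT16, and Ubtf stays between 39.3 and 73.0 CPM in all libraries.

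Whether the rhythm differed between groups was tested directly, as a joint test of the difference in the cosine terms. For knockout against WT, 1 of 41 members passed in the Bmal1 line under ad libitum feeding, where 0.767% of genes did. In the Bmal1 line under night feeding 0 passed (1.32% of genes), and 0 in the Cry line under ad libitum (0.913%) and night feeding (2.66%). Between feedings 0 passed in Bmal1 WT (0.0127%), Bmal1 KO (0%), Cry WT (0.0888%) and Cry KO (0%). At an unadjusted p under 0.05 the 7 comparisons with a count of 0, in the same order, held 1, 10, 3, 0, 0, 0 and 9 members, where 9.30%, 9.47%, 15.4%, 1.61%, 2.53%, 6.63% and 7.15% of genes did, and DESeq2 called 0 in each. The counts of 10 and 9 use Cry KO AL, and without its series 2 they were 0 and 0 (7.91% and 4.70% of genes). With no filter on low counts 0 members passed in the Bmal1 line under ad libitum feeding, 2 in the Cry line under ad libitum feeding and 3 between feedings in Cry KO. The lowest adjusted p in these was 0.124. The lower count of rhythmic members in Bmal1 KO AL (0, against 5 in WT) is thus not shown to be a difference in rhythm for any member but Nat10, and in Cry KO AL and its WT the counts were both 0.

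Nat10, the acetyltransferase of the small subunit RNA, was that member. In Bmal1 WT AL it read 18.0 and 18.1 CPM at ZT8, 18.1 and 18.9 CPM at ZT12, 28.8 and 28.9 CPM at ZT16, and 30.6 and 32.1 CPM at ZT20. In Bmal1 KO AL the libraries ran from 30.7 to 45.9 CPM, with 38.4 and 45.9 CPM at ZT8 and 30.7 and 38.4 CPM at ZT20. The WT trough at ZT8 and ZT12 was absent from the KO libraries. The range was 0.82 log2 in WT (peak at ZT 21.7, adjusted p = 0.000421) and 0.19 in KO, and the rhythms differed (edgeR, adjusted p = 0.0124). Without any 1 of the 4 series the difference did not pass, and over 11 alternatives its adjusted p reached 0.439.

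The same contrast for Nat10 under night feeding had ranges of 0.69 in WT and 0.09 in KO (unadjusted p = 0.00453, adjusted p = 0.169). In Cry WT the range was 0.52 under AL (adjusted p = 0.0573) and 0.64 under RF (0.00462), and in Cry KO it was 0.16 and 0.04. Those differences did not pass, with adjusted p = 0.323 under AL and 0.151 under RF. In WT the fitted peaks of Nat10 lay at ZT 20.3 to 22.6.

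**Figure D4:**
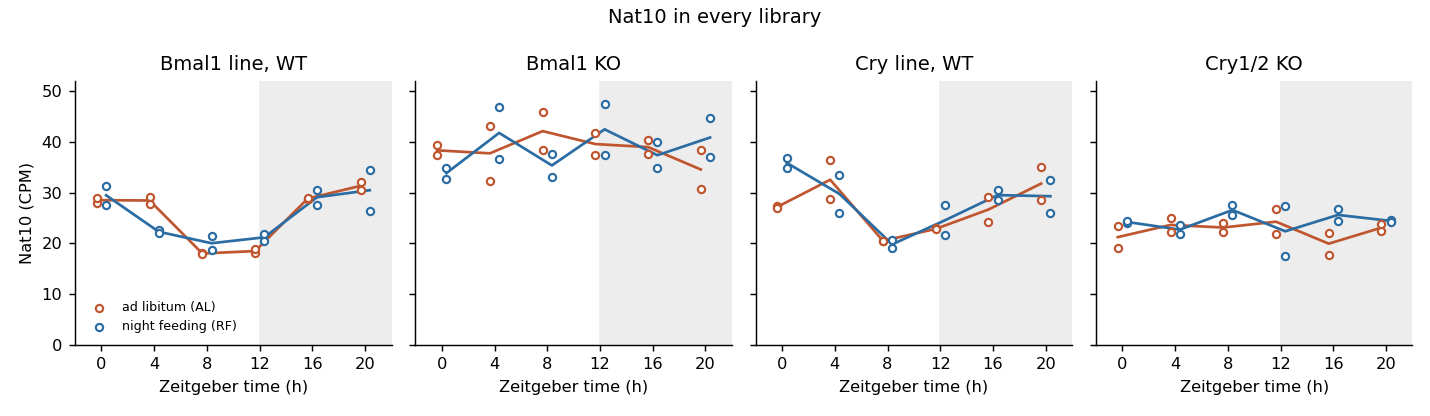
Nat10 level in CPM (vertical, from 0) against zeitgeber time in hours; circles are single libraries, lines join the means of 2 libraries, orange is ad libitum and blue night feeding, and grey marks the dark phase. The WT libraries fall to between 18.0 and 21.5 CPM at ZT8, while Bmal1 KO libraries lie between 30.7 and 47.6 CPM at all times.

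Mean level over the 6 times was compared in the same libraries with equal weight for each time. In Bmal1 KO AL 9 of 41 members were higher than in WT, where 13.7% of genes were, and 1 was lower, where 10.7% were. In Bmal1 KO RF 3 were higher (10.5% of genes) and 0 lower (10%). The median member differed by 0.14 log2 under AL and 0.10 under RF, and the median of all genes by 0.02 and 0.01. Nat10, Npm1 and Polr1a were higher under both feedings.

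Nat10 had the smallest p of the members. Its libraries read 18.0 to 32.1 CPM (median 28.4) in Bmal1 WT AL and 30.7 to 45.9 CPM (median 38.4) in KO AL, so the groups overlapped slightly. The difference was 0.62 ± 0.07 log2 (SE; edgeR, adjusted p = 1.28e-10). Under RF the libraries ran from 18.6 to 34.5 CPM (median 24.5) in WT and from 32.8 to 47.6 CPM (median 37.3) in KO, with a difference of 0.62 ± 0.07 (adjusted p = 1.37e-10). The time mean of Nat10 was higher in KO at 6 of 6 times under both feedings, and the difference passed under all 11 alternatives for each feeding, at 0.59 to 0.66 log2.

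Npm1 ran from 84.8 to 160 CPM (median 105) in WT AL and from 104 to 156 CPM (median 124) in KO AL, ranges that overlap widely. It differed by 0.26 ± 0.09 log2 under AL (adjusted p = 0.0256) and by 0.34 ± 0.09 under RF (0.00396). Polr1a, the catalytic subunit of RNA polymerase I, differed by 0.26 ± 0.10 (0.0472) and 0.30 ± 0.10 (0.0239). Under AL alone, Ncl was 0.33 ± 0.09 higher (adjusted p = 0.00249) and Rrp12 0.53 ± 0.14 higher (0.00255). Dkc1, the pseudouridine synthase, Nop14, Mybbp1a and Rrp1b were 0.19 to 0.34 higher, and Rrp9 was 0.29 ± 0.09 lower (0.017). Ubtf, Rrn3, Polr1b and Fbl did not pass under either feeding.

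Without Bmal1 WT AL series 1, KO AL series 1 or KO AL series 8, the 10 calls under AL fell to 4, 4 and 3, and without WT AL series 8 they were 10. With no filter on low counts 5 were called under AL and 5 under RF, and with the groups fitted alone or Cry KO AL series 2 left out of the shared fit 6 were under RF. Other values moved with this contrast. The 6 hepatocyte markers summed to 33010 to 54500 CPM in Bmal1 KO AL against 72310 to 126800 CPM in WT AL. Under RF they summed to 36740 to 52120 against 47090 to 99500 CPM. Under AL and RF 2 and 1 of the 6 were called lower. This sum depends strongly on Alb, which spanned 11680 to 100800 CPM over all libraries. No other of the 6 exceeded 16580 CPM (Apoa1). The 5 cholangiocyte markers summed to 43.0 to 99.2 CPM (median 66.7) in Bmal1 KO AL against 28.6 to 73.0 CPM (median 41.3) in WT AL, and to 31.4 to 84.7 (median 54.7) against 27.9 to 58.6 CPM (median 39.6) under RF, with 2 and 1 of the 5 called higher. Median fold changes of all genes went from −0.04 in the shortest of the 4 exon length classes to 0.12 in the longest under AL. Their part in the result was not tested. The difference of the knockout effect between feedings passed for 0 members (0% of genes higher and 0% lower), and DESeq2 called 0. At an unadjusted p under 0.05 there was 1 member, and 1036 of the 15772 genes.

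**Figure D5:**
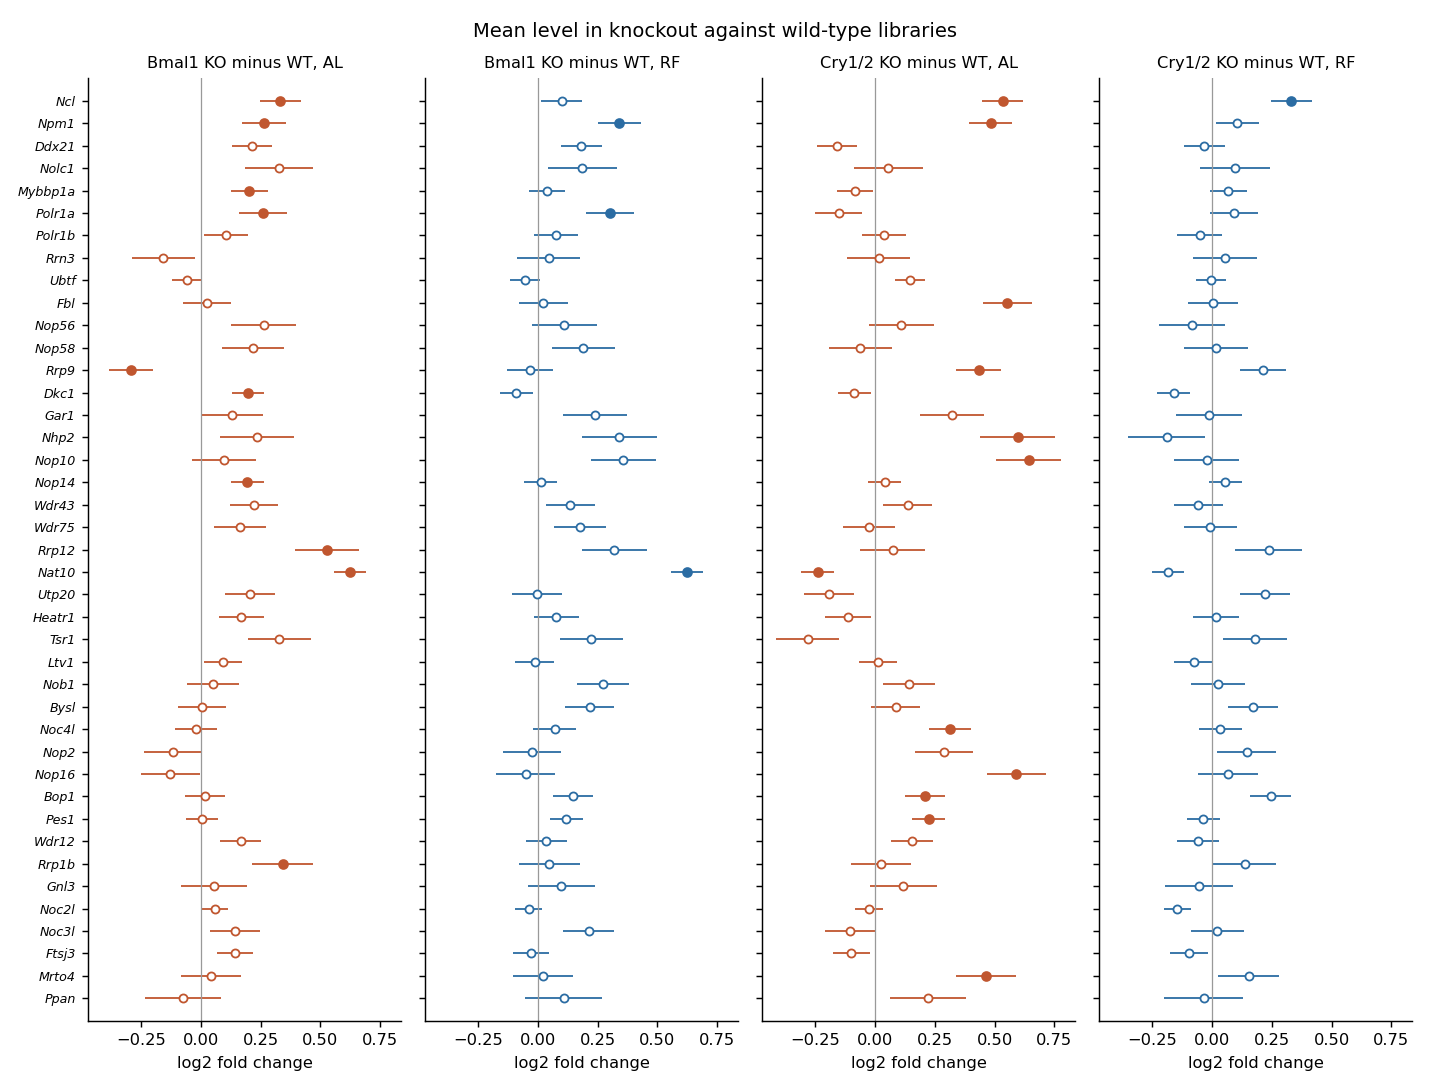
Log2 fold change of mean level, KO minus WT (horizontal), for the 41 genes in role order (vertical), with bars of 1 SE; filled circles passed at an adjusted p under 0.05. Nat10 stands at 0.62 in both Bmal1 panels, and the filled circles of the Cry1/2 KO AL panel, such as Nop10 at 0.64, rest on series 2 of that group.

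In Cry KO AL 11 members were higher than in WT (19.7% of genes) and 1, Nat10, was lower (13.3%). These calls rest on 1 series. Without series 2 0 members were called, with 2.7% of genes higher and 2.62% lower, and the median member differed by −0.01 log2. Without series 1 there were 21 calls, 15 higher and 6 lower, against 26.5% and 34.9% of genes. With both series, Nop10 was 0.64 ± 0.14 higher (adjusted p = 0.000268), Fbl 0.55 ± 0.10 (4.63e-05), Ncl 0.53 ± 0.09 (4.2e-06), Npm1 0.48 ± 0.09 (5.7e-05), Nhp2 0.60 ± 0.16 (0.00267), Nop16 0.59 ± 0.12 and Mrto4 0.46 ± 0.13, and Nat10 0.24 lower (−0.24 ± 0.07, 0.00525). Without series 2 the differences were −0.08 for Nop10, −0.12 for Nhp2, −0.02 for Mrto4, 0.09 for Fbl, 0.27 for Ncl and 0.18 for Npm1.

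In Cry KO RF 1 member was higher (3.28% of genes) and 0 lower (3.02%). It was Ncl, which ran from 139 to 243 CPM (median 175) in WT RF and from 195 to 254.9 CPM (median 220) in KO RF, so the groups overlapped. The difference was 0.33 ± 0.09 log2 (edgeR, adjusted p = 0.00857), and it did not pass without Cry KO RF series 3, without series 5, or without Cry WT RF series 9. Fbl, Npm1, Polr1a, Polr1b, Rrn3 and Ubtf did not pass there. The effect of the Cry knockout differed between feedings, RF minus AL, for 3 members, all lower (0.85% of genes higher, 5.48% lower): Fbl, Nhp2 and Nop10. Without Cry KO AL series 2 it differed for 0 members and 0 genes, and without the 7 libraries high in Saa1, Isg15 or Ctrb1 for 0 members.

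Under night feeding 6 members were lower than under ad libitum feeding in Bmal1 WT (6.37% of genes were lower) and 0 higher (9.33%). Bysl read 13.6 to 26.8 CPM (median 20.2) under AL and 8.88 to 23.9 CPM (median 12.9) under RF, and was 0.46 lower (−0.46 ± 0.10 log2, adjusted p = 0.00276). Rrp9 read 5.73 to 10.3 CPM (median 8.10) and 4.15 to 9.18 CPM (median 5.57), with a difference of −0.42 ± 0.09 (0.00322). The groups overlap for both genes. Bop1, Noc4l, Nob1 and Pes1 were the others, at −0.33, −0.31, −0.35 and −0.21. All 6 lie in the second of the 4 exon length classes, which holds 13 members. Median fold changes of all genes ran from −0.11 in the shortest class to 0.17 in the longest in this contrast, and the part of length in the result was not tested. The count was 2 without WT AL series 1, 3 without WT RF series 2, 1 without WT RF series 4, and 14 with Cry KO AL series 2 left out of the shared fit or with the groups fitted alone.

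Between feedings 0 members passed in Bmal1 KO (0.514% of genes higher, 0.0317% lower), and DESeq2 called 0. At an unadjusted p under 0.05 there were 12 members, and 2094 of the 15772 genes. Of the 41 differences 36 were negative, with a median of −0.14 log2 for the members and −0.02 for all genes. In Cry WT 0 passed (0.647% higher, 0.938% lower), and DESeq2 called 0. At an unadjusted p under 0.05 there was 1 member, and 2245 genes. In Cry KO 8 members were lower (13.1% of genes) and 1, the 40S factor Utp20, higher (5.07%), and without Cry KO AL series 2 0 were called. The WT groups of the 2 lines were also compared. Under AL 3 members were higher in Cry WT than in Bmal1 WT (11.1% of genes) and 0 lower (9.42%): Nop14 at 0.23, Heatr1 at 0.26 and Ftsj3 at 0.22. None passed without Bmal1 WT AL series 1 or without either Cry WT AL series, and 1 did without the 7 libraries high in Saa1, Isg15 or Ctrb1. With the groups fitted alone 7 did, and with Cry KO AL series 2 left out of the shared fit 8. Under RF 0 were higher (0.197%) and 0 lower (0.659%), and DESeq2 called 0. At an unadjusted p under 0.05 there were 11 members, and 1663 genes.

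Other genes of the pathway were followed as lists. Of 36 cytosolic ribosomal protein genes, the structural proteins of the ribosome, 0 were rhythmic in any group, with median ranges of 0.08 to 0.36 log2. Per group 0% to 18.9% of all genes were rhythmic. All 36 were higher in Cry KO AL (median 0.73, 19.7% of all genes higher), and 1 was without series 2 (median 0.12, 2.7% of all genes). Under night feeding in Bmal1 WT 9 were lower (median −0.30), where 6.37% of all genes were. Of 72 other assembly factors, 5 were rhythmic in Bmal1 WT AL (9.97% of all genes) and 10 in Bmal1 WT RF (12.8%). Of these, 3 and 6 had a peak in the dark. Rcl1, a factor of pre-RNA cleavage, peaked in the light: its range was 1.19 log2 with a peak at ZT 8.2 in Bmal1 WT AL (adjusted p = 0.00101) and 1.27 at ZT 8.6 in Cry WT RF (0.000128). Its libraries ran from 62.3 to 185 CPM (median 113) in Bmal1 WT AL. Of 17 other RNA polymerase I subunits and factors 1 was rhythmic in Bmal1 WT AL (9.97% of all genes). It was Taf1c of the promoter selectivity factor, with a range of 1.17 and a peak at ZT 19.6 (edgeR, adjusted p = 0.0208). Of 19 RNA polymerase III genes 2 were rhythmic in Bmal1 WT AL (9.97% of all genes). Polr3g had a range of 0.81 with a peak at ZT 19.6 (edgeR, adjusted p = 0.000718).

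Of 25 tested regulators of the MYC network and mTORC1, 5 were rhythmic in Bmal1 WT AL (9.97% of all genes) and 7 in Cry WT RF (18.9%). Mtor, the kinase of mTORC1, peaked in the light, at ZT 8.2 with a range of 0.94 in Bmal1 WT AL (adjusted p = 0.00186) and at ZT 7.6 with a range of 1.11 in Cry WT RF (0.000101). Larp1, which binds the mRNAs of ribosomal proteins, peaked at ZT 23.0 in Bmal1 WT AL (range 0.65, adjusted p = 0.000772). In Bmal1 KO AL 3 of the 25 were higher and 7 lower (13.7% and 10.7% of all genes). In Bmal1 KO RF 2 were higher and 6 lower (10.5% and 10%). Mycn, a MYC family member, read 0.222 to 1.48 CPM (median 0.452) in Bmal1 WT AL and 0 to 0.153 CPM (median 0.0484) in KO AL, with 173 counts in 12 libraries against 16. Under RF it read 0.283 to 1.71 CPM (median 0.877) and 0 to 0.271 CPM (median 0.0813), and it was called lower in both (edgeR, adjusted p = 3.35e-07 and 2.2e-07). Eif4ebp1, the translation repressor 4E-BP1, was 0.80 lower in Bmal1 KO AL (−0.80 ± 0.12, adjusted p = 1.4e-06), from 24.6 to 48 CPM (median 34.8) in WT to 15.5 to 23.1 CPM (median 19.6) in KO, ranges that do not overlap.

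Some counts can be shared with other genes. Exons of Tsr1 overlap those of Srr on the opposite strand over 32.3% of their length, Noc2l those of Samd11 over 20.9% and Bysl those of Ccnd3 over 9.37%. The libraries were made with a stranded kit, but the strand setting of the counting is not given in the sources used here, so their values are uncertain. Pseudogenes of at least 90% identity over 300 bases were found for several members, most for Npm1 (8) and Nop56 (5). Their counts came to at most 1.12% of the member's own, for Tsr1.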

How the data were processed

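Liver mRNA libraries were prepared with the TruSeq Stranded mRNA kit, per the labels' protocols. The submitters' processing notes name STAR 2.4.0i and mm10. Neither the counting program nor its strand setting is named there. The deposited table holds raw counts per Ensembl gene, which the authors did not normalize. Symbols, exon lengths and coordinates came from GENCODE M21 (mm10). The members and lists were chosen with earlier results of these data known.

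Counts were analysed with edgeR 4.0.16 (quasi-likelihood, TMM scaling), limma 3.58.1 and R 4.3.3, with a two-sided Benjamini-Hochberg adjustment over 15772 genes left by filterByExpr (minimum count 10, total 15). Mean level used 1 mean per group and time over all 96 libraries, and rhythm a 24 h cosine per group. Plots of the 41 genes used log2(CPM + 0.5). The scripts were tested on simulated data. No 2 libraries of a group and time held identical values.

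Full statistics are given for up to 4 called members per direction or group, with the smallest p or the largest range, and always for Ncl, Npm1, Fbl, Polr1a, Polr1b, Rrn3 and Ubtf, and for up to 3 genes of each other list. Alternatives were DESeq2 1.42.0, RLE size factors, no filter, groups fitted alone, a free mean per time, no minimum range, a replicate block, and leaving out each series or the libraries that stand apart. Leaving Cry KO AL series 2 out of the fit shared by other comparisons, out of the other lists and out of its own daily pattern was chosen after seeing the data.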

Additional observations from a re-analysis of the deposited data

Results flagged for a closer look

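The knockout effect on mean level differed between feedings in the Cry line for 3 members, as night minus ad libitum feeding. The difference was −0.549 log2 for Fbl, −0.786 for Nhp2 and −0.665 for Nop10 (edgeR, adjusted p = 0.0217, 0.0297 and 0.0308). Without Cry KO AL series 2 none of the 3 passed, and Nop10 read 0.0555.

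The rhythm of Nat10 differed between Bmal1 KO and WT under ad libitum feeding, with a range that was −0.627 log2 in KO minus WT (edgeR, adjusted p = 0.0124). The difference kept its direction under 11 of 11 alternatives, from −0.646 to −0.408, and passed in 6. It did not pass without any 1 of the 4 series or with no filter on low counts.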

How the results depend on the processing

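Of 295 recomputed counts of called members, 223 stayed within 1.5 times the value reported and 72 moved. Shares of all genes in the same settings are mostly not given, so a moved count is not read as a result about the members. Of 944 recomputed results for single members, 657 kept their call, 280 lost it and 7 changed sign. The cause was not tested.

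With 1 series left out, the members called ranged from 3 to 10 in Bmal1 KO against WT under AL, stayed at 2 under RF, ranged from 0 to 21 in Cry KO against WT under AL and from 0 to 1 under RF. For night against ad libitum feeding they ranged from 1 to 6 in Bmal1 WT, 0 to 1 in Bmal1 KO and 0 to 17 in Cry KO, and were 0 in Cry WT. The knockout effect between feedings gave 0 in the Bmal1 line and 0 to 17 in the Cry line, and Cry WT against Bmal1 WT 0 to 3 under AL and 0 under RF. Rhythmic members ranged from 0 to 1 in Bmal1 WT AL and Bmal1 KO RF and from 0 to 8 in Cry WT RF, and were 0 in the other groups. Rhythm differences gave 0. Leaving out Cry KO AL series 1 or series 2 gave, in that order, 1.09 and −0.118 for Nhp2, 1.13 and −0.0779 for Nop10 and 0.845 and −0.018 for Mrto4 in Cry KO against WT under AL. Between feedings in Cry KO it gave −1.08 and 0.13 for Nop10, −0.93 and 0.0375 for Nop16 and −0.754 and 0.109 for Mrto4. For Nop10 in the knockout effect between feedings it gave −1.16 and 0.0555. The sign changed without series 2 in all 7.

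With no filter on low counts, 5 members were called in Bmal1 KO against WT under AL and 5 under RF, 2 between feedings in Bmal1 KO, 2 in Cry WT against Bmal1 WT under RF, and 11, 4, 9, 8 and 11 were rhythmic in Bmal1 WT AL, Bmal1 KO AL, Bmal1 KO RF, Cry WT AL and Cry KO RF. Rhythm differences were then 0 in Bmal1 KO against WT under AL, 2 in Cry KO against WT under AL and 3 between feedings in Cry KO. With the groups fitted alone, 6 were called in Bmal1 KO RF, 5 in Cry KO AL, 14 between feedings in Bmal1 WT, 0 between feedings in Cry KO, 0 in the Cry knockout effect between feedings and 7 in Cry WT against Bmal1 WT under AL, and 1, 5 and 2 were rhythmic in Bmal1 KO RF, Cry WT AL and Cry WT RF. With Cry KO AL series 2 left out of the shared fit, 6 were called in Bmal1 KO RF, 14 between feedings in Bmal1 WT and 8 in Cry WT against Bmal1 WT under AL, and 8 and 3 were rhythmic in Bmal1 KO RF and Cry WT AL. DESeq2 called 6 in the Cry knockout effect between feedings, and 8 and 3 rhythmic members in Bmal1 KO RF and Cry WT AL. With a free mean per time 8 and 3 were rhythmic in Bmal1 WT AL and Cry WT AL. Without the 7 libraries that stand apart 0 were called in the Cry knockout effect between feedings and 1 in Cry WT against Bmal1 WT under AL, and 3 and 1 were rhythmic in Bmal1 KO RF and Cry KO RF.

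The series numbers were not taken to pair the Bmal1 groups. Over 12 combinations of feeding and time, the correlation between the deviations of same-numbered WT and KO libraries ran from −0.0785 to 0.298 (median 0.105), with 6 over 0.1. With the replicate block 11 members were called in Bmal1 KO against WT under AL and 3 under RF, 0 in the Bmal1 knockout effect between feedings, and 1 and 0 for rhythm differences in Bmal1 KO against WT under AL and RF. With an intercept per series as the replicate block, 6, 14, 0, 7, 5, 13, 0 and 10 members were rhythmic in Bmal1 WT AL, WT RF, KO AL, KO RF and Cry WT AL, WT RF, KO AL, KO RF. Over all genes, groups fitted alone called 1908 against 5205 for mean level, Cry KO vs WT, AL, 145 against 2863 for mean level, RF vs AL, Cry KO, and 1 against 999 for mean level, KO effect RF minus AL, Cry. Depth limits low members most: Gar1 had 6 counts in the shallowest library.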
